A study of Mus musculus with 6 samples.

Results

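Transcripts of 8 surface proteins used as markers of bile duct progenitors or of carcinoma cells were followed in LD-1 cells given hepatocyte growth factor (HGF). The 8 genes Epcam, Prom1, Cd24a, Plet1, Tspan8, Muc1, Pdpn and Ggt1 were taken by symbol from a table of 28212 genes, and each symbol matched 1 row. LD-1 is a mouse line of cholangiocarcinoma, the cancer that arises from bile duct cells. The HGF group and the Control group held 3 poly(A) RNA libraries each. The labels give no dose, exposure time, genotype or strain, do not say whether replicates were separate cultures, and name the material as tissue as well as a cell line, so p-values measure the spread between libraries, which may be technical.

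Bile ducts and the small progenitor cells that appear in injured liver carry several of these proteins on their surface, and antibodies against them are used to isolate such cells. HGF binds the receptor Met, is made by mesenchymal cells of the liver and acts on the epithelial cells beside them. The 8 proteins have different roles. Epcam and Cd24a take part in adhesion, Tspan8 organises membrane partners, Prom1 sits on membrane protrusions, Muc1 and Pdpn are mucin-type glycoproteins, Plet1 marks epithelial progenitors in several mouse tissues, and Ggt1 is an enzyme that cleaves extracellular glutathione.

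HGF libraries held more transcript of Plet1 and Pdpn, which were called in all 15 alternative settings run. Tspan8 also passed the threshold, but its libraries overlapped between the groups in FPKM and CPM and it was not called in 9 of the 15. The test called none of the 8 lower, beside 19.3% of all tested genes. The 8 genes and the gene lists below were chosen with earlier results of these data known, so such counts are description only. Plet1 changed most, 3.60-fold, followed among the called genes by Pdpn at 1.46-fold and Tspan8 at 1.24-fold. All 8 genes passed the low-count filter. In the quasi-likelihood test of edgeR over 17322 genes, with Benjamini-Hochberg adjustment and a threshold of 0.05, 3 of 8 were called higher, beside 19.1% of all tested genes, and 3 of 8 were called in either direction, beside 38.5%. The median log2 fold change, given throughout as HGF minus Control, was 0.31 for the 8 genes and -0.02 for all tested genes. Without the TMM scaling factors the median of all genes shifted by -0.10, and 32.3% of calls were higher in place of 49.8%. Ratios of FPKM (read fragments scaled to the length of the transcript and to library size) lack that scaling and show smaller rises than the fitted folds. Without Control 3, a library that stood apart in several ways given with the low genes, 2 of the 8 were called, Plet1 and Pdpn, beside 33% of the genes then tested.

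**Figure D1:**
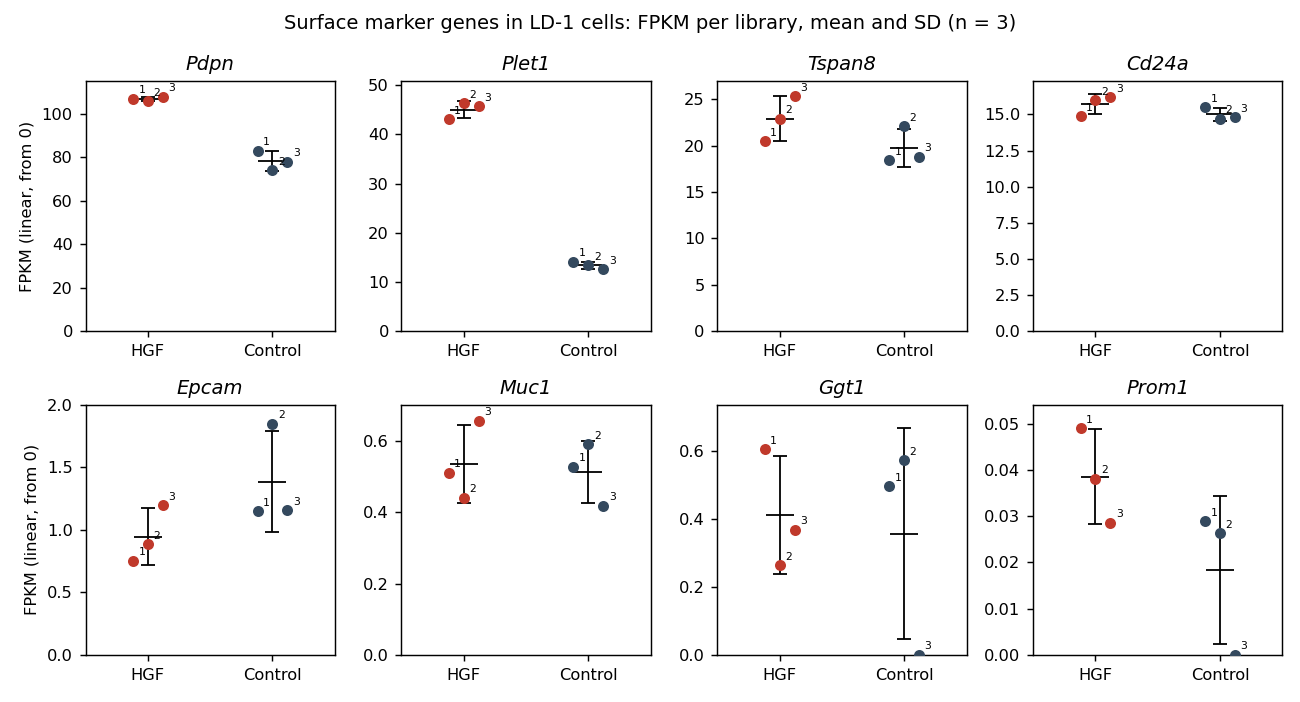
FPKM of the 8 genes on linear axes from 0, one panel a gene, with HGF libraries left of Control libraries, numbered points for libraries and black bars for the mean and SD of 3. The groups stand apart for Pdpn and Plet1, and Control 3 is at 0 for Ggt1 and Prom1.

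The 8 genes fell into 4 that were clearly expressed and 4 that were at low levels. In FPKM, a scale that allows levels to be compared between genes, the order in HGF libraries was Pdpn, Plet1, Tspan8, Cd24a, Epcam, Muc1, Ggt1 and Prom1. In Control libraries it was Pdpn, Tspan8, Cd24a, Plet1, Epcam, Muc1, Ggt1 and Prom1, so that Plet1 stood above Tspan8 and Cd24a with HGF and below both in controls. The ratio of Plet1 to Tspan8 in FPKM was 1.98 ± 0.156 with HGF and 0.680 ± 0.0819 in controls (SD, n = 3 each), with no overlap between the groups (two-sided exact permutation test p = 0.1, the smallest that 3 against 3 allows). This ratio was not a planned comparison. The permutation test could not have reached 0.05 and adds nothing to the lack of overlap. Neighbours in each order did not overlap, except Muc1 with Ggt1 in both groups and Ggt1 with Prom1 in controls. Pdpn made up 55.6% of the summed FPKM of the 8 genes with HGF and 60.9% in controls, and Plet1 made up 23.3% and 10.4%. By mean FPKM over the 6 libraries, Pdpn was above 97.1% of tested genes, Plet1 above 89.2%, Tspan8 above 85.1% and Cd24a above 79.5%, whereas Epcam, Muc1, Ggt1 and Prom1 were above 34.7%, 26%, 22.7% and 1.29%. Of the genes usually taken to define biliary progenitors, Epcam and Prom1 were thus low in both groups. Epcam had 119 to 297 counts in each library, whereas Prom1 had 0 to 26. Whether the 8 genes are expressed in the same cells cannot be told from bulk RNA.

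**Figure D2:**
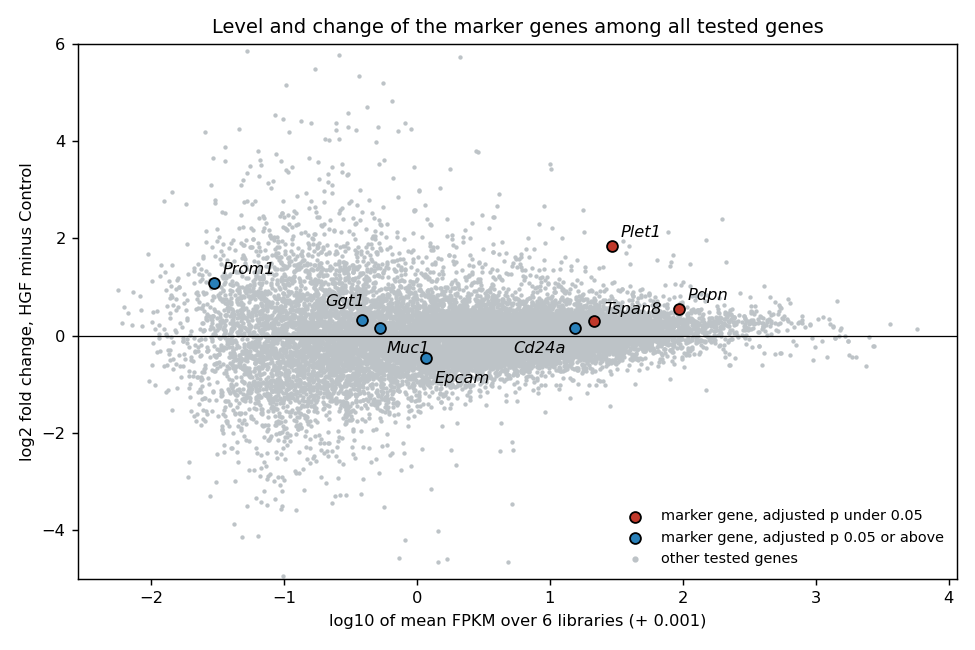
Each tested gene by the log10 of its mean FPKM over 6 libraries (x axis) and its log2 fold change, HGF minus Control (y axis), with the 8 genes in colour and 49 genes outside the y axis. Plet1 stands high among genes of its level, and Prom1 lies at the low end of the FPKM scale.

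Plet1 (placenta expressed transcript 1, ENSMUSG00000032068, chromosome 9, 50494525 to 50505482, plus strand) encodes a membrane glycoprotein, held by a GPI anchor and found on progenitors of hair follicle and thymic epithelium in mice. Its FPKM was 43.1, 46.3 and 45.7 in HGF libraries, against 14.1, 13.4 and 12.6 in controls. Every HGF library was about as high as the others and far above every control. The log2 fold change was 1.85 ± 0.06 (SE), a 3.60-fold rise with a 95% interval of 3.28 to 3.94 (edgeR, adjusted p = 3.67e-07). By log2 fold change it ranked 15 among the 5257 tested genes whose mean FPKM reached 10 in either group. The rise stayed past the threshold in all 15 alternative settings run, with log2 fold changes of 1.68 to 1.89.

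A noncoding gene on the opposite strand, Plet1os, overlaps Plet1 at chromosome 9, 50488795 to 50507823. It had 18, 37 and 33 counts in HGF libraries, against 6, 10 and 3 in controls (log2 2.27 ± 0.60, edgeR adjusted p = 0.0163), and it missed the threshold without HGF 2 (adjusted p = 0.0825), HGF 3 (0.0545) or Control 1 (0.0584). The use of strand in counting is not given in the sources used here, and reads of the pair cannot be told apart, although Plet1 itself had 6001 to 6492 counts with HGF and 1588 to 2011 in controls. The nearest tested gene to the right of Plet1, Pts, which encodes an enzyme of tetrahydrobiopterin synthesis, lies 16135 bases away and was not called (log2 -0.24 ± 0.10, adjusted p = 0.0732). The genes whose log2 CPM (counts scaled to library size) followed that of Plet1 most closely over the 6 libraries were Mtmr11 (Pearson r = 0.9998) and Bhlhe40 (r = 0.9997), with log2 fold changes of 1.42 ± 0.06 and 0.71 ± 0.05. With only 6 libraries in 2 groups, 2039 of 10147 genes compared had an r above 0.9 with Plet1, so an r of this size was common.

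Pdpn (podoplanin, ENSMUSG00000028583, chromosome 4, 143267431 to 143299564, minus strand) encodes a sialylated glycoprotein whose short tail binds ezrin and moesin and whose outer part binds a receptor on platelets. Its FPKM was 107, 106 and 108 in HGF libraries, against 83.2, 74.1 and 78.0 in controls. The HGF libraries lay within a narrow range above all 3 controls. The log2 fold change was 0.55 ± 0.05, or 1.46-fold with a 95% interval of 1.35 to 1.58 (edgeR, adjusted p = 6.55e-05), and it stayed past the threshold in all 15 alternatives (log2 0.45 to 0.59). Plet1 and Pdpn were the only 2 of the 8 genes whose groups did not overlap in FPKM, beside 53.5% of tested genes. In TMM-scaled CPM 4 of the 8 did not overlap (Plet1, Pdpn, Cd24a and Prom1), beside 51.4%. For Prom1 this was a near tie, 0.237 CPM in HGF 3 against 0.235 in Control 1, from 15 and 16 counts. The closest patterns to Pdpn were Mrto4 (r = 0.9989) and Spata5l1 (r = 0.9984), but 2000 of 10147 genes had an r above 0.9 with it.

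Of 14 tested podoplanin partners 8 rose and 2 fell, with a median log2 fold change of 0.14 beside -0.02 for all tested genes. For this and every gene list that follows, the shares of all tested genes to set beside the counts are 19.1% higher and 19.3% lower. Ezr, the gene of ezrin, averaged 126 ± 4.30 FPKM with HGF and 90.3 ± 5.57 in controls (log2 0.58 ± 0.05, edgeR adjusted p = 4.21e-05). Msn, the gene of moesin, rose by log2 0.47 ± 0.06 (adjusted p = 4.19e-04). Cd44, the hyaluronan receptor and a binding partner of podoplanin, averaged 77.2 ± 0.620 FPKM with HGF and 47.4 ± 2.67 in controls (log2 0.80 ± 0.04, adjusted p = 4.69e-06). Clec1b, the platelet receptor, did not pass the filter. Among 17 tested enzymes of mucin-type O-glycosylation and sialylation, which act on proteins such as podoplanin and mucins, 5 rose and 2 fell (median 0.08). St3gal1, a sialyltransferase of the core O-glycan, averaged 12.8 ± 0.146 FPKM with HGF and 7.77 ± 0.456 in controls (log2 0.82 ± 0.05, adjusted p = 9.06e-06). St3gal4 and Galnt3 rose by 0.61 ± 0.09 and 0.58 ± 0.09 (adjusted p = 0.00107 and 0.00122).

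Pdpn is also a marker of lymphatic endothelium and of some fibroblasts. The summed CPM of 6 lymphatic endothelial markers was 2.43 to 3.84 in HGF libraries and 1.48 to 3.57 in controls, and none of 3 tested members was called. Lyve1 and Ccl21a were at 0 in every library but Control 3, which had 8 and 4 counts. Cdh5 had 132, 81 and 100 counts with HGF, against 48, 26 and 76 in controls. Prox1 had 17, 12 and 24 against 7, 11 and 4. Pecam1 had 91, 53 and 88 against 114, 58 and 119, and Flt4 had at most 6 in any library. The summed CPM of 9 fibroblast and mesenchymal markers was 456 to 480 with HGF and 102 to 114 in controls, 6 of 8 tested members were higher and none was at 0 in Control 3. That sum was chiefly the collagen genes Col3a1 and Col1a1. Pdgfrb had 792, 731 and 814 counts with HGF, against 485, 478 and 369 in controls. Acta2 had 98, 221 and 209 against 90, 46 and 49. Col1a2 had 150, 134 and 372 against 52, 90 and 103, and Thy1 had 22, 28 and 14 against 6, 4 and 4. Pdgfra had 569, 479 and 391 counts with HGF, against 494, 434 and 410 in controls, with overlap. Dcn had 112, 133 and 136 against 18, 41 and 144, and Lum had at most 14 in any library. The part of such transcripts in the rise of Pdpn was not tested, and in bulk RNA a change in the number of cells of a type and in the RNA of each cell cannot be told apart.

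The promoter windows of the 2 genes with the clearest rises are shown because they carry different short motifs. RefSeq windows (build GRCm38.p6) from 250 bases before to 50 bases after the start were matched for 7 of the 8 genes. Each was searched on both strands for 7 motifs, and no 2 matches overlapped. The AP-1 motif was spelled TGANTCA, with N for any base. The ETS factor motif was spelled ACTTCC. The TEAD factor motif was spelled CATTCC. The E-box was spelled CACGTG. The STAT factor motif was spelled TTCNNNGAA. The GC box was spelled GGGCGG. The TATA box was spelled TATAAA. The 250 bases before the start of Plet1 (chr9:50494275-50494524, plus strand) and of Pdpn (chr4:143299565-143299814, minus strand) read as follows, 5′ to 3′, with motif matches in capitals.
Plet1: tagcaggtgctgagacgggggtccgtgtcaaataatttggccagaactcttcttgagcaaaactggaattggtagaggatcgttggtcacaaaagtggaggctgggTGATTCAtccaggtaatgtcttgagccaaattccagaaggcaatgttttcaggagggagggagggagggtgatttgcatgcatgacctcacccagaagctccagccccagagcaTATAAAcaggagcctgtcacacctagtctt
Pdpn: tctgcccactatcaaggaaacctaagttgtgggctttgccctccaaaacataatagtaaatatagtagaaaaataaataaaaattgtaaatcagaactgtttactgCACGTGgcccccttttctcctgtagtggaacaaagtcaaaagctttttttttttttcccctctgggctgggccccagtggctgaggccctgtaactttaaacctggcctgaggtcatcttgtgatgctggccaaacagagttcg
The Plet1 window holds an AP-1 match that begins 144 bases before the start and a TATA box that begins 30 bases before it. The Pdpn window holds an E-box that also begins 144 bases before the start, and past the start it holds 2 GC boxes. Of all 32851 promoter windows, 7.81% hold an AP-1 match, 13.6% a TATA box, 7.15% an E-box, 35.7% a GC box, 23.8% an ETS match, 14.7% a TEAD match and 8.30% a STAT match. An AP-1 match was also present in both windows of Prom1, which was not called, and the Tspan8 window held none of the 7 motifs. These matches describe letters only.

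Tspan8 (ENSMUSG00000034127, chromosome 10, 115816832 to 115849620, plus strand) encodes a tetraspanin, a protein that crosses the membrane several times and gathers integrins and other partners. Its FPKM was 20.5, 22.9 and 25.3 in HGF libraries, against 18.4, 22.1 and 18.8 in controls. Control 2 lay above HGF 1, so the groups overlapped. The fitted rise was small, log2 0.31 ± 0.09, or 1.24-fold with a 95% interval of 1.07 to 1.44 (edgeR, adjusted p = 0.0311), and it missed the threshold in 9 of 15 alternatives (log2 0.20 to 0.39, adjusted p = 0.00304 to 0.273). It was lost with library size only (adjusted p = 0.127), with no low-count filter (0.0628), with limma on FPKM (0.115, 0.138 and 0.273), and without HGF 2 (0.0800), HGF 3 (0.0902), Control 1 (0.107) or Control 3 (0.0880). A gene of unknown role on the other strand, 4930422I22Rik, overlaps it with at most 6 counts in any library.

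Other tetraspanins went both ways, with 8 of 21 tested higher, 3 lower and a median log2 fold change of 0.11. Of all tested genes, 19.1% were higher and 19.3% lower. Without Control 2, 7 were called in all in place of 11. Tspan9 averaged 39.3 ± 0.960 FPKM with HGF and 29.2 ± 1.3 in controls (log2 0.52 ± 0.04, edgeR adjusted p = 4.16e-05). Tspan17, whose protein guides the sheddase ADAM10 to the surface, had a log2 fold change of -0.91 ± 0.07 (adjusted p = 2.54e-05). Tspan31 fell by 0.55 on the log2 scale (adjusted p = 6.16e-05). The closest patterns to Tspan8 over the 6 libraries were those of Rnmt (r = 0.9974), an mRNA cap methyltransferase gene, and Camk1d (r = 0.9898), and 191 of 10147 genes had an r above 0.9.

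Cd24a (ENSMUSG00000047139, chromosome 10, 43578284 to 43584265, plus strand) encodes a short glycoprotein held in the membrane by a GPI anchor, a ligand of P-selectin and, in mice, of Siglec-G. Its FPKM was 14.9, 16 and 16.2 in HGF libraries, against 15.5, 14.7 and 14.8 in controls, with overlap. In TMM-scaled CPM it was 44.2, 47.6 and 48.1 with HGF, against 42.9, 40.3 and 41.6 in controls, without overlap. The log2 fold change of 0.17 ± 0.06 just missed the threshold (edgeR, adjusted p = 0.0514), and its 95% interval, 1.02-fold to 1.23-fold, leaves out changes as large as that of Pdpn. It passed in 4 of 15 alternatives, with DESeq2 (adjusted p = 0.0187), median-of-ratios scaling (0.0315), counts divided by 4 (0.0444) and without HGF 1 (0.0270), and its adjusted p ranged up to 0.403.

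Of 15 tested genes for Cd24 receptors, linked kinases and synthesis of the GPI anchor, 3 rose and 5 fell, with a median of -0.32. Selp, the gene of P-selectin, averaged 27.8 ± 1.44 FPKM with HGF and 12.9 ± 1.07 in controls (log2 1.21 ± 0.06, edgeR adjusted p = 4.69e-06). Siglecg, the gene of Siglec-G, went the other way, with 1.36 ± 0.227 FPKM with HGF and 2.28 ± 0.0521 in controls (log2 -0.65 ± 0.13, adjusted p = 0.00362). Pigs and Gpaa1, subunits of the transamidase that attaches GPI anchors to proteins, had log2 fold changes of -0.49 ± 0.04 and -0.56 ± 0.06 (adjusted p = 5.87e-05 and 1.03e-04). The closest patterns to Cd24a were Tmem138 (r = 0.9979) and Pus7l (r = 0.9939), and 377 of 10147 genes had an r above 0.9 with it.

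**Figure D3:**
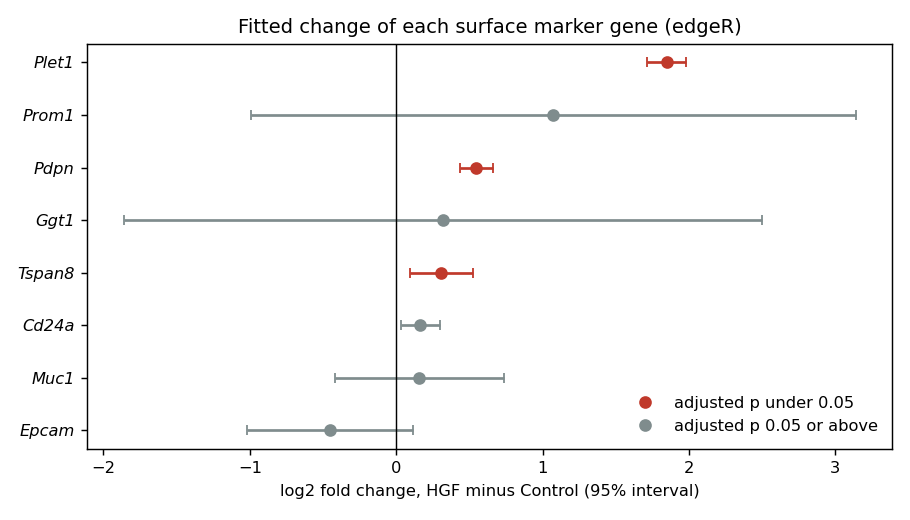
Fitted log2 fold change of each gene, HGF minus Control, with its 95% interval from edgeR, in red where the adjusted p was under 0.05. The intervals of Prom1 and Ggt1 are the widest, and that of Cd24a ends just above 0 although its adjusted p was 0.0514.

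Epcam (ENSMUSG00000045394, chromosome 17, 87635979 to 87651106, plus strand) encodes the epithelial cell adhesion molecule, a homophilic adhesion protein of bile ducts and of most carcinomas. Its FPKM was 0.753, 0.887 and 1.20 in HGF libraries, against 1.15, 1.85 and 1.16 in controls. HGF 3 lay above Control 1 and Control 3, so the groups overlapped. The log2 fold change of -0.45 ± 0.25 was not called (edgeR, adjusted p = 0.192), and its 95% interval ran from 0.493-fold to 1.08-fold. Without Control 2, the highest library, it was -0.20 (adjusted p = 0.592), and no alternative called it. Control 3 was not apart for Epcam, with 2.79 CPM beside 2.72 and 4.34 in the other controls.

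Of 20 tested EpCAM partners and processing enzymes, 5 rose and 4 fell, with a median of 0.06, and 5 were called in all without HGF 2 or without Control 2. Cd44 was the gene with the smallest p, and Ctsl, a lysosomal protease gene, followed with 132 ± 1.40 FPKM with HGF and 97.7 ± 2.25 in controls (log2 0.53 ± 0.04, edgeR adjusted p = 1.48e-05). Fhl2, whose protein carries the cleaved tail of EpCAM to the nucleus, rose by 0.71 ± 0.06 (adjusted p = 3.51e-05). The claudin gene Cldn7, a direct partner of EpCAM, was scarcely detected, with 0.249 ± 0.0693 FPKM with HGF and 0.121 ± 0.106 in controls, and was at 0 in Control 3. Blm (r = 0.9824) and Chm (r = 0.9760) had the closest patterns to Epcam, and neither was called. An r above 0.9 with Epcam was found for 125 of 10147 genes.

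Muc1 (ENSMUSG00000042784, chromosome 3, 89229057 to 89233381, plus strand) encodes the transmembrane mucin of glandular epithelia. Its FPKM was 0.511, 0.441 and 0.656 in HGF libraries, against 0.527, 0.591 and 0.418 in controls, with overlap. The log2 fold change was 0.16 ± 0.25 (edgeR, adjusted p = 0.667), with a 95% interval of 0.748-fold to 1.66-fold. Its neighbours on both sides rose. Thbs3, a thrombospondin gene 2220 bases to the left, had a log2 fold change of 0.69 ± 0.05 (adjusted p = 2.28e-05), and Trim46, 796 bases to the right on the opposite strand, 0.77 ± 0.14 (adjusted p = 0.00282). Whether Muc1 differs from them was not tested. Of 7 tested genes listed with the mucins, 0 rose and 1 fell by the edgeR test, with 1 higher and 2 lower at an unadjusted p under 0.05. DESeq2 called 1 higher and 1 lower, and 0 to 2 were called over all alternatives. The gene called by edgeR, Mcam, encodes an adhesion molecule and not a mucin in structure, and averaged 0.506 ± 0.145 FPKM with HGF and 0.983 ± 0.129 in controls (log2 -0.85 ± 0.24, adjusted p = 0.0219). Without Control 1 or Control 3 its adjusted p was 0.0523 and 0.0618, and with no low-count filter it was 0.0530. Tshz1 (r = 0.9858) and Qrsl1 (r = 0.9796) had the closest patterns to Muc1, and 17 of 10147 genes had an r above 0.9 with it.

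Ggt1 (ENSMUSG00000006345, chromosome 10, 75561604 to 75586191, plus strand) encodes gamma-glutamyltransferase, which splits glutathione at the outer face of bile duct and kidney tubule cells. It had 149, 66 and 93 counts in HGF libraries, against 125, 143 and 0 in controls. Prom1 (ENSMUSG00000029086, chromosome 5, 43993620 to 44101958, minus strand), the gene of prominin, a marker of liver progenitors that kidney tubules also carry, had 26, 20 and 15 counts with HGF, against 16, 15 and 0 in controls. Both genes were thus at 0 in Control 3 and in no other library. The log2 fold change was 0.32 ± 0.96 for Ggt1 and 1.07 ± 0.91 for Prom1 (edgeR, adjusted p = 0.827 and 0.393). The 95% intervals, 0.275-fold to 5.65-fold for Ggt1 and 0.503-fold to 8.80-fold for Prom1, allow large changes in either direction. Without Control 3 they were -0.26 for Ggt1 and 0.51 for Prom1 (adjusted p = 0.605 and 0.549), so the sign for Ggt1 turned with that library.

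Control 3 lacked many other transcripts that the remaining libraries held. Of genes with at least 15 counts in each of the other 5 libraries, 107 were at 0 in Control 3, whereas the same count was 3 to 8 for the other libraries. The summed CPM of 17 kidney genes, a list chosen after these values were seen, was 83.0 to 86.1 in HGF libraries, against 67.2, 80.3 and 5.65 in Control 1, Control 2 and Control 3. In Control 3, 8 of the 17 were at 0, among them Kap and Miox, which in mice are restricted largely to the kidney. Kap had 2575, 2312 and 2459 counts with HGF, against 2131, 2670 and 0 in controls. In FPKM it was at 41.1 to 51.9 in the other 5 libraries, so not all of these transcripts were at low levels. The closest patterns to Ggt1 were Klk1 (r = 0.9919), a kallikrein gene of kidney and salivary gland, and Patl1 (r = 0.9900), and one of the closest to Prom1 was Mycn (r = 0.9902). These r values rest largely on Control 3, where Klk1 was at 0 and Mycn at 0.0781 FPKM. Of 10147 genes compared, 67 had an r above 0.9 with Ggt1 and 105 with Prom1. The part of kidney transcripts in the values of Ggt1 and Prom1 was not tested.

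**Figure D4:**
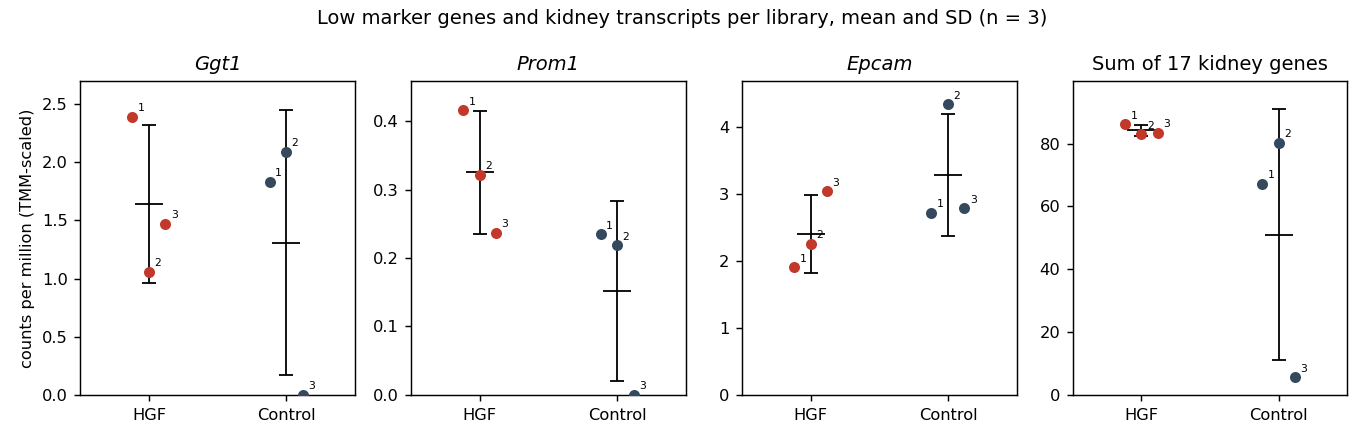
TMM-scaled CPM of Ggt1, Prom1 and Epcam and the summed CPM of 17 kidney genes per library on linear axes from 0, HGF left of Control, with numbered points for libraries and bars for the mean and SD of 3. Control 3 is at 0 for Ggt1 and Prom1 and at 5.65 for the kidney sum, and lies within the range of the other libraries for Epcam.

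Of 16 tested enzymes and carriers of the glutathione cycle around Ggt1, 6 rose and 3 fell, with a median log2 fold change of 0.33. Anpep, an aminopeptidase that acts on the dipeptide left by Ggt1, averaged 43.0 ± 2.06 FPKM with HGF and 24.4 ± 0.516 in controls (log2 0.92 ± 0.05, edgeR adjusted p = 4.12e-06). Lap3, a cytosolic aminopeptidase gene, rose by 0.70 ± 0.04 and Abcc1, an exporter of glutathione conjugates, by 0.57 ± 0.07 (adjusted p = 7.92e-06 and 3.43e-04). The 3 that fell were Chac1, Gclm and Gclc, with log2 fold changes of -0.73 ± 0.10, -0.31 ± 0.05 and -0.38 ± 0.07 (adjusted p = 6.58e-04, 0.00166 and 0.00325). The left neighbour of Ggt1, Lrrc75b, lies 1274 bases away on the opposite strand and had a log2 fold change of -1.08 ± 0.23 (adjusted p = 0.00548). Of 15 tested genes listed with the prominin family and membrane protrusions, 3 rose and 2 fell (median 0.06). Prom2 was listed but not tested. The 2 that fell were Ttyh3 (log2 -0.56 ± 0.06, edgeR adjusted p = 2.22e-04) and Myo1a (log2 -1.21 ± 0.23, adjusted p = 0.00325). Eps8, an actin regulator of microvilli, averaged 7.46 ± 0.0647 FPKM with HGF and 2.95 ± 0.284 in controls (log2 1.43 ± 0.07, adjusted p = 2.46e-06), and Baiap2l1, a membrane-bending protein gene, rose by 0.56 ± 0.06.

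Of 20 tested genes among other biliary and progenitor markers, 9 rose and 1 fell, with a median log2 fold change of 0.69. Krt19, a keratin of bile ducts, averaged 165 ± 6.13 FPKM with HGF and 63.5 ± 2.30 in controls (log2 1.47 ± 0.04, edgeR adjusted p = 2.71e-07), and Krt18 rose by 0.88 ± 0.03. The bile duct keratin Krt7 and the epithelial cadherin Cdh1 were near the detection limit, Krt7 at 0.0830 ± 0.0229 FPKM with HGF and 0.0762 ± 0.0451 in controls and Cdh1 at 0.236 ± 0.0245 and 0.173 ± 0.121. The line thus carried some defining markers of cholangiocytes and scarcely carried others. Of 18 tested further carcinoma surface antigens, 6 rose and 1 fell (median 0.29). Ly6e averaged 375 ± 4.42 FPKM with HGF and 286 ± 3.29 in controls (log2 0.48 ± 0.04, adjusted p = 2.26e-05), Cd276 rose by 0.43 ± 0.05 and the EGF receptor gene Egfr by 0.53 ± 0.08.

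**Figure D5:**
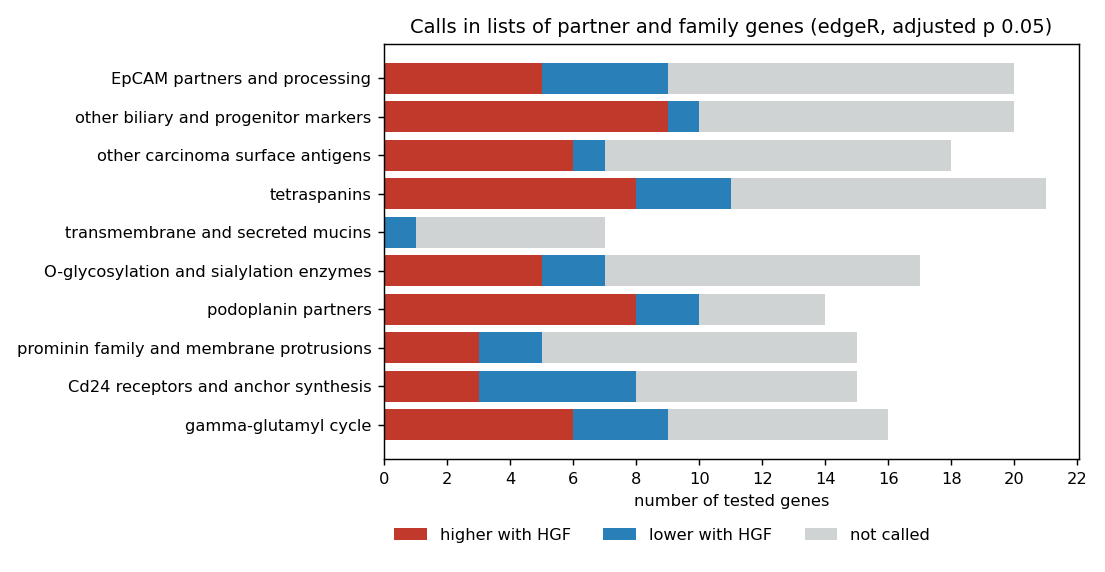
Number of tested genes (x axis) called higher with HGF, called lower or not called by edgeR in each of 10 lists of partner and family genes. The list of other biliary and progenitor markers holds 9 higher and 1 lower, and that of Cd24 receptors and anchor synthesis 3 higher and 5 lower. Not drawn are the shares of all tested genes, 19.1% higher and 19.3% lower.

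Markers of further cell types moved with HGF or with Control 3. The summed CPM of 9 cholangiocyte markers was 915 to 1010 in HGF libraries and 318 to 360 in controls, with 4 of 8 tested higher. That of 9 hepatocyte markers was 21 to 34.2 with HGF and 1.47 to 6.64 in controls, and Fgb and Tat were at 0 in all 3 controls. Macrophage markers summed to 121 to 130 with HGF and 73.4 to 205 in controls, and skeletal muscle markers to 3.16 to 5.93 with HGF and 3.28 to 418 in controls, the highest in both cases being Control 3. Keratinocyte and squamous markers summed to 43.1 to 44.8 with HGF and 4.29 to 6.12 in controls, chiefly through Krt13, while Krt5 had at most 4 counts in any library. Neutrophil and B cell markers, added because Cd24a is found on those cells, summed to 14.0 to 17.3 with HGF and 2.73 to 4.21 in controls. That sum was chiefly Ly6g, with 883, 1032 and 853 counts with HGF, against 189, 261 and 138 in controls. The other genes of this list had at most 21 counts in any library, 1 of 3 tested was higher, and Cd79b was at 0 in every HGF library. The part of these transcripts in the values of the 8 genes was not tested. Plet1 and Pdpn gave log2 fold changes of 1.82 and 0.55 without Control 3, close to 1.85 and 0.55 with it. Total counts ranged from 57073866 (Control 3) to 66302502 (Control 1).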

How the data were processed

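Poly(A) RNA of 6 libraries was sequenced in pairs on an Illumina instrument, per the labels' protocols. The authors' deposited table gives whole-number counts per gene, used as deposited, and FPKM, the authors' values per transcript length and library size. StringTie 1.3.0, HISAT2 2.0, Bowtie 0.12.2 and the build mm8 appear, with no roles given, in the submitters' processing notes. Coordinates are those of the table: 86.8% of 28133 shared identifiers, and 4 of the 8 genes, carry those of GENCODE M21 (GRCm38) exactly, and all 8 have the same strand there. Groups came from sample titles. Genes kept by filterByExpr were tested two-sided by quasi-likelihood in edgeR 4.0.16 (R 4.3.3) after TMM scaling. SE is the log2 fold change divided by the square root of F, and 95% intervals use the moderated degrees of freedom. The test was tested on simulated data. No libraries were merged, since in counts divided by 4 the chi-square between libraries of a group was 2.66 to 6.52 times its degrees of freedom. Alternatives used DESeq2 1.42.0, limma 3.58.1 on log2(FPKM + 1) or log2(FPKM + 0.1) with an FPKM of at least 1 in 3 libraries or no filter, no low-count filter, other scaling, a replicate block, each library left out, and counts divided by 4, since a count of 4 was commoner than 3 or 5 (1110 genes per library against 527 and 306). A fold change on the log2(FPKM + pseudocount) scale understates the change of low genes. The 8 genes and the lists were chosen with earlier results of these data known. Named genes were the 8 genes, up to 3 called genes with the smallest p per list, the 2 genes with the highest Pearson r of log2 CPM to each of the 8 (mean FPKM of at least 1), and overlapping or nearest tested neighbours, with some left out for length. Other genes were named after their values were seen. The kidney and small intestine lists were added after seeing the data. Protein sequences were not used here.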

Additional observations from a re-analysis of the deposited data

How the results depend on the processing

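Of the 8 genes, Plet1 and Pdpn kept their call and direction in all 15 alternatives, Epcam, Muc1, Prom1 and Ggt1 were called in none, and Tspan8 and Cd24a crossed the threshold as given above. The sign of Ggt1 turned to -0.26 without Control 3 and to -0.054 without HGF 1, with a range of -0.26 to 0.82 over libraries left out in turn. With limma on FPKM, 2041 (pseudocount 1), 1984 (pseudocount 0.1) and 2145 (no filter) genes were higher, in place of 3316, and 32.4%, 32.4% and 34.1% of calls were higher. Leaving out 1 library at a time gave 2 to 4 of the 8 genes called and 4893 to 6228 calls in all, or 27.1% to 34.7% of the genes tested. Replicate numbers did not pair the libraries (correlations of same-numbered deviations 0.0592, -0.030 and 0.0377), and the fit with the replicate block called 3 of the 8 genes and 6846 genes in all. Prom1, Muc1 and Ggt1 gave no value with limma under the FPKM minimum, nor Prom1 with counts divided by 4. Prom1, Ggt1, Muc1 and Epcam had at most 297 counts in any library, and their intervals include no change.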

Other observations

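The summed CPM of 18 small intestine genes, a list chosen after the values were seen, was 14.4, 13.8 and 22.6 in HGF libraries, against 13.2, 14.5 and 2.20 in controls, and 14 of the 18 were at 0 in Control 3, among them Lyz1 and Itln1, genes of Paneth and goblet cells. Not all of the list had this pattern: Lct, the lactase gene, had 22, 11 and 15 counts with HGF, against 78, 79 and 82 in controls, and Fabp2 and Reg3g were at 0 in all 3 controls. Skeletal muscle markers went the other way, with a summed CPM of 418 in Control 3 and at most 5.93 in any other library. The only 2 of the 8 surface marker genes at 0 in any library, Ggt1 and Prom1, were at 0 in Control 3.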
